A study of Homo sapiens with 9 samples.

Results

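The Sprouty, SPRED and PEA3 genes are 9 of the 18417 genes measured on the arrays: SPRY1, SPRY2 and SPRY4 of the Sprouty family, SPRED1, SPRED2 and SPRED3 of the SPRED family, and ETV1, ETV4 and ETV5, the PEA3 group of ETS transcription factors. They were taken by name, each through the only probe set that carried its symbol and no other. RNA from IMR90 ER:RAS cells, a human lung fibroblast line carrying oncogenic RAS as a fusion with the estrogen receptor's hormone-binding domain, was hybridized to 9 whole-transcript arrays in 3 groups of 3. The first group carried a short hairpin against ARID1B and received 4-hydroxytamoxifen, which switches the RAS fusion on (shARID1B+4OHT), the second carried an empty vector and received 4OHT (vector+4OHT), and the third carried the empty vector without 4OHT (vector-4OHT). The labels give 100 nM 4OHT for the groups that received it. They give 6 days after 4OHT, also for the cells that did not receive it, and 7 days of growth. All 3 groups carry ER:RAS. The article treats 4OHT in these cells as a trigger of oncogene-induced senescence, a stable growth arrest, and reports that ARID1B depletion blunted it. In these groups the RAS signal, 4OHT itself and senescence cannot be told apart. Nor can loss of ARID1B and the blunted senescence. Below, "with RAS" and "with the hairpin" name the differences between groups only. Cells with the hairpin but no 4OHT, cells with a control hairpin and cells given 4OHT without ER:RAS were not analysed here. The labels do not say how many hairpins were used. The article's legend calls the replicates of this experiment biological, while the labels do not say whether they were separate cultures, and the p-values cover the spread between these arrays.

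Sprouty and SPRED proteins are brakes on the signal that receptor tyrosine kinases send through RAS, RAF and MEK to ERK. Several of them are transcribed when ERK is active, which makes a negative feedback loop, and SPRED proteins bring the RAS inactivator NF1 to the membrane. ETV1, ETV4 and ETV5 bind a GGAA core in DNA, are often induced downstream of FGF and ERK signaling, and are repressed by capicua (CIC) and degraded through COP1.

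In cells with active RAS, SPRY2, SPRY4 and, only just, ETV4 rose more than 2-fold. Called and at least 2-fold higher were thus 3 of the 9, against 1.35% of all genes. SPRED2, ETV1 and SPRED1 rose less, and SPRY1 fell. In cells that also carried the ARID1B hairpin, ETV1 (1.77-fold) and SPRY2 (1.21-fold) were higher again than in vector+4OHT cells and SPRED2 was lower, while the other 6 genes were not called. Of the 6 genes that rose with RAS, 5 were also called higher in shARID1B+4OHT than in vector-4OHT cells, where 15.6% of all genes were. Both calls use the same vector-4OHT arrays, so this overlap is partly built in. Its share among all genes that rose with RAS was not computed.

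All values are log2 expression after robust multi-array averaging (RMA), 1 per probe set and array, so a difference of 1 is a doubling. On all 9 arrays, all 9 genes were above 6.75, the median of all probe set values. Values of different genes come from different probes and are not compared in height. Differences between groups were tested with limma over all 18417 genes, and a gene was called at a Benjamini-Hochberg adjusted p under 0.05. The smallest p that an exact permutation test of 3 arrays against 3 can give is 0.1. Array medians lay between 6.70 and 6.79. ARID1B, a subunit of the SWI/SNF chromatin remodeler and the target of the hairpin, had 8.07, 7.96 and 8.13 in shARID1B+4OHT cells against 8.63, 8.96 and 8.77 in vector+4OHT cells. Its groups did not overlap, and its log2 change was -0.73 (adjusted p = 0.000179, limma), and its level fell by 39.9%.

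To give the sequence beside the values, the 250 bases before the RefSeq transcription starts (assembly GRCh38.p14) were searched on both strands for the capicua octamers TGAATGAA and TGAATGGA, the ETS core CCGGAA, the PEA3 motif AGGAAG, the AP-1 site TGANTCA and the cyclic AMP element TGACGTCA. None of these motifs contains another, though matches of CCGGAA and AGGAAG can overlap. For 7 of the 9 genes 17 promoters were matched by symbol, and ETV4 and ETV5 were not matched. The stretches below are those before 1 start each of the genes with the largest rises with RAS (SPRY4 and SPRY2) and the largest rise with the hairpin (ETV1), with matches in capitals.
ETV1, chr7:13991426-13991675, minus strand: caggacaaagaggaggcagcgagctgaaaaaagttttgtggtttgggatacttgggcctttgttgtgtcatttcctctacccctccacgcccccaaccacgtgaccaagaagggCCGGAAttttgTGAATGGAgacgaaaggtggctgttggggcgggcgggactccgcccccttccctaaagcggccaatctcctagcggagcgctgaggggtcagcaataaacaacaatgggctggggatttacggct
SPRY2, chr13:80341127-80341376, minus strand: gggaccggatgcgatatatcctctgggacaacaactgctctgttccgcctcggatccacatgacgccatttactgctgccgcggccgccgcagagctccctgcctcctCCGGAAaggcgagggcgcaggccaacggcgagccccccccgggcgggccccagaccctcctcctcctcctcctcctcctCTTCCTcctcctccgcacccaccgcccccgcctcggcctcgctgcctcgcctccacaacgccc
SPRY4, chr5:142324248-142324497, minus strand: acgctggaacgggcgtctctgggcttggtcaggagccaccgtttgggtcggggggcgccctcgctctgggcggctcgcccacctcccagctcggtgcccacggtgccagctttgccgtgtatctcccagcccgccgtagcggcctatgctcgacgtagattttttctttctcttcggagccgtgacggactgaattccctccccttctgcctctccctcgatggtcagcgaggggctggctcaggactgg

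The ETV1 stretch holds TGAATGGA at 125 to 118 bases before the start and CCGGAA at 136 to 131 bases before it. It is 1 of 6 ETV1 promoters and was printed because it holds the octamer, which the other 5 lack. Over the 17 promoters TGAATGGA lies in 1 and CCGGAA in 5 (of ETV1, SPRY1 and SPRY2), against 0.832% and 14.5% of 35116 promoters of the same length. The SPRY2 stretch holds CCGGAA at 142 to 137 bases and CTTCCT, which is AGGAAG on the other strand, at 63 to 58 bases before the start. No searched motif lies in the SPRY4 stretch. AGGAAG lies in 10 of the 17 promoters, against 28.7% of all promoters. These 10 belong to 6 of the 7 genes, and no share per gene was computed. Several of the 17 promoters overlap or belong to the same gene, so the same match can be counted more than once. TGAATGAA and TGANTCA each lie in 1 of the 17, in the same SPRED3 promoter, against 1.4% and 6.57% of all promoters. TGACGTCA lies in 0 of the 17 and in 1.65% of all promoters. A match is a stretch of letters in a window, and binding was not measured on these arrays.

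The first comparison asked which of the genes change when RAS is switched on, and set vector+4OHT against vector-4OHT cells. Of the 9 genes, 6 were called higher and 1 lower, where 32.6% of all genes were called (14.9% or 2747 higher and 17.6% or 3249 lower). With array medians subtracted the split over all genes was 3026 higher and 2658 lower, and that of the 9 genes was the same 6 and 1. The groups did not overlap for 8 of the 9, 7 of them higher (18.3% of all genes) and 1 lower (21.7%), against 40.1% of all genes in either direction. The median log2 change was 0.54 over the 9 genes and -0.012 over all genes.

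**Figure D1:**
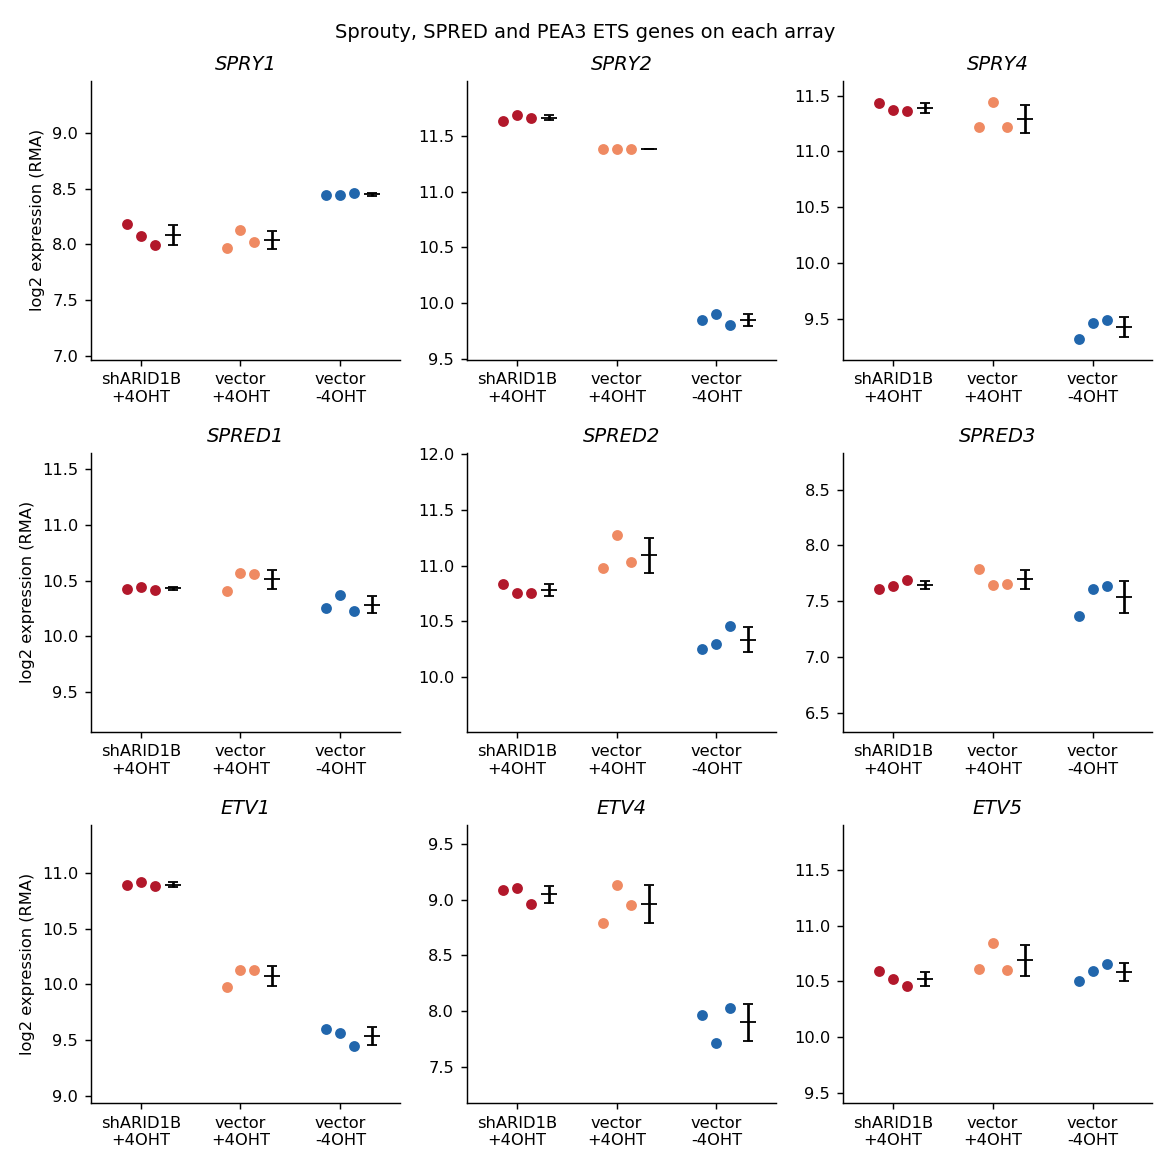
Log2 expression (RMA) of the 9 genes on each array, 1 point per array, for shARID1B+4OHT (left), vector+4OHT (middle) and vector-4OHT (right), with the mean and SD of 3 arrays beside the points; each panel has its own log2 range of equal width. The vector-4OHT points of SPRY2, SPRY4, SPRED1, SPRED2, ETV1 and ETV4 lie below all others of the gene, those of SPRY1 lie above, and the ETV1 points of shARID1B+4OHT stand above both other groups.

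Among the Sprouty genes, SPRY4, an inhibitor of RAS activation downstream of receptor kinases, had 11.22, 11.44 and 11.22 in vector+4OHT cells and 9.32, 9.46 and 9.49 in vector-4OHT cells. The lowest vector+4OHT array was well above the highest vector-4OHT array, and the log2 change was 1.87 (95% confidence interval 1.72 to 2.03, adjusted p = 1.23e-08, limma), or 3.66-fold. By size, this was rank 73 among the rises of 18417 genes. SPRY2, the Sprouty that binds the ubiquitin ligase CBL, had 11.38 on each of the 3 vector+4OHT arrays and 9.85, 9.91 and 9.80 in vector-4OHT cells. Its groups were as clearly apart, with a log2 change of 1.53 (1.43 to 1.63, adjusted p = 2.24e-09), or 2.89-fold, at rank 108. The deposited SPRY2 values of the vector+4OHT arrays were identical. That was so for 192 genes, or 1.04% of all, in this group. SPRY2, SPRY4 and ETV1, 3 of the 9 genes, held the same value on 2 or 3 vector+4OHT arrays, against 10.3% of all genes. Such repeats lower the measured spread, and their cause was not tested. With each gene's standard error raised to at least the median over genes, a setting chosen after these values were seen, all 7 calls of this comparison were kept.

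SPRY1, the third Sprouty, went the other way. It had 7.97, 8.13 and 8.02 in vector+4OHT cells, against 8.44, 8.44 and 8.46 in vector-4OHT cells. All vector+4OHT arrays were lower, with a log2 change of -0.41 (-0.55 to -0.28, adjusted p = 0.000331), and its level fell by 24.8%. Within arrays, SPRY4 minus SPRY1 lay between 3.20 and 3.31 in vector+4OHT cells and between 0.88 and 1.02 in vector-4OHT cells. These differences between probe sets have no meaning as levels, and their shift of 2.28 is the gap between the changes of the genes (exact permutation p = 0.1, the smallest possible, adjusted p = 0.114 over 8 such tests). The pairs of genes compared within arrays were not among the planned tests. Their p-values come from the same arrays as the changes and give no separate support.

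Of the SPRED genes, which encode membrane-bound partners of NF1, SPRED2 rose most. SPRED2 had 10.98, 11.27 and 11.03 in vector+4OHT cells and 10.25, 10.30 and 10.46 in vector-4OHT cells. The groups did not overlap, and the log2 change was 0.76 (0.57 to 0.94, adjusted p = 3.57e-05), or 1.69-fold. SPRED1, whose loss of function causes Legius syndrome, had 10.41, 10.56 and 10.56 in vector+4OHT cells and 10.25, 10.37 and 10.23 in vector-4OHT cells. The lowest vector+4OHT array was just above the highest vector-4OHT array, with a log2 change of 0.23 (0.096 to 0.36, adjusted p = 0.0121), or 1.17-fold. SPRED3 had 7.79, 7.64 and 7.65 in vector+4OHT cells and 7.37, 7.61 and 7.63 in vector-4OHT cells. The groups nearly touched and the change of 0.16 was not called (-0.0047 to 0.32, adjusted p = 0.137). SPRED2 minus SPRED1 within arrays shifted by 0.53 (0.47 to 0.71 in vector+4OHT cells, -0.073 to 0.23 in vector-4OHT cells, exact permutation p = 0.1).

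The PEA3 genes were as uneven. ETV4 had 8.79, 9.13 and 8.95 in vector+4OHT cells, against 7.96, 7.71 and 8.03 in vector-4OHT cells. Its groups were apart by more than their own ranges, with a log2 change of 1.06 (0.84 to 1.28, adjusted p = 1.15e-05), or 2.08-fold. The change was 0.96 without vector-4OHT replicate 2 and 0.97 without vector+4OHT replicate 2, both just under 2-fold. ETV1 had 9.97, 10.13 and 10.13 in vector+4OHT cells and 9.60, 9.56 and 9.45 in vector-4OHT cells. It was also higher on every vector+4OHT array, by 0.54 (0.41 to 0.67, adjusted p = 4.1e-05), or 1.45-fold. ETV5 had 10.61, 10.85 and 10.60 in vector+4OHT cells and 10.50, 10.59 and 10.66 in vector-4OHT cells. These ranges overlapped, and the change of 0.10 was not called (-0.061 to 0.27, adjusted p = 0.353). The interval leaves room for a rise of up to 1.20-fold in ETV5. ETV4 minus ETV5 shifted by 0.95 within arrays and ETV1 minus ETV4 by -0.52, both without overlap between the groups (exact permutation p = 0.1 each).

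The second comparison asked what the ARID1B hairpin changed in cells with active RAS, and set shARID1B+4OHT against vector+4OHT cells. It shares the vector+4OHT arrays with the first. Of the 9 genes, 2 were called higher and 1 lower, where 15.7% of all genes were called (9.63% higher and 6.09% lower). The groups did not overlap for 4 of the 9, 2 higher (17.7% of all genes) and 2 lower (14.8%), against 32.5% in either direction, and the median log2 change was 0.046 over the 9 genes and -0.017 over all genes.

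**Figure D2:**
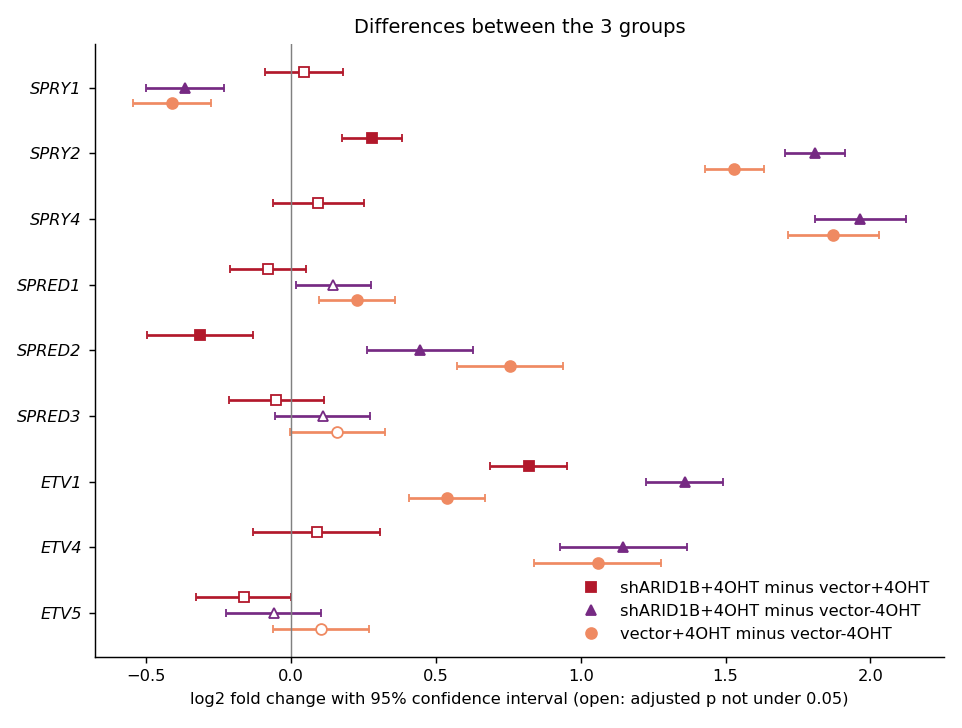
Log2 fold change of the 9 genes with its 95% confidence interval from limma, for shARID1B+4OHT minus vector+4OHT (squares), shARID1B+4OHT minus vector-4OHT (triangles) and vector+4OHT minus vector-4OHT (circles); filled symbols have an adjusted p under 0.05. The square of ETV1, at 0.82, lies farthest from 0 among the squares, and those of SPRY4 and ETV4 lie at 0.094 and 0.089 with intervals across 0.

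ETV1 showed the largest difference with the hairpin. It had 10.89, 10.91 and 10.88 in shARID1B+4OHT cells, against 9.97, 10.13 and 10.13 in vector+4OHT cells. The 3 shARID1B+4OHT arrays lay close together and above all others, with a log2 change of 0.82 (0.69 to 0.95, adjusted p = 1.29e-05), or 1.77-fold, at rank 106 among the rises of all genes. SPRY2 had 11.64, 11.68 and 11.66 in shARID1B+4OHT cells and 11.38 on each vector+4OHT array. It was higher on all 3 arrays by 0.28 (0.18 to 0.38, adjusted p = 0.00257), or 1.21-fold. The calls of ETV1 and SPRY2 were kept in all 18 alternative settings, among them the raised standard error.

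SPRED2 was lower with the hairpin, with 10.84, 10.75 and 10.75 in shARID1B+4OHT cells and 10.98, 11.27 and 11.03 in vector+4OHT cells. The groups did not overlap, and the log2 change was -0.31 (-0.50 to -0.13, adjusted p = 0.0268), and its level fell by 19.5%. Without vector+4OHT replicate 2, the highest of its group, the change was -0.22 (adjusted p = 0.0813). Without shARID1B+4OHT replicate 2 or 3 the change stayed at -0.30, but was no longer called with 1 array fewer (adjusted p = 0.0951 and 0.0929).

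The other 6 genes were not called. SPRY4 had 11.43, 11.37 and 11.36 in shARID1B+4OHT cells, inside the range of 11.22 to 11.44 in vector+4OHT cells, and changed by 0.094 (-0.063 to 0.25, adjusted p = 0.428). ETV4 had 9.08, 9.10 and 8.96, inside the range of 8.79 to 9.13 in vector+4OHT cells, and changed by 0.089 (-0.13 to 0.31, adjusted p = 0.603). The intervals leave room for rises of up to 1.19-fold in SPRY4 and 1.24-fold in ETV4. ETV5 had 10.59, 10.52 and 10.46 in shARID1B+4OHT cells, just below the lowest vector+4OHT array at 10.60, with a change of -0.16 (-0.33 to 0.00074, adjusted p = 0.181). SPRY1 had 8.18, 8.08 and 7.996 in shARID1B+4OHT cells, overlapping the 7.97 to 8.13 of vector+4OHT cells (log2 change 0.046, adjusted p = 0.666). SPRED1 and SPRED3 overlapped too, with changes of -0.080 (adjusted p = 0.414) and -0.050 (adjusted p = 0.70). Within arrays, ETV1 minus ETV4 lay between 1.81 and 1.92 in shARID1B+4OHT cells and between 0.99 and 1.18 in vector+4OHT cells, a shift of 0.73. ETV4 minus ETV5 shifted by 0.25 and SPRED2 minus SPRED1 by -0.23, also without overlap (exact permutation p = 0.1 for each of these 3). SPRY4 minus SPRY1 shifted by 0.048 with overlapping groups (exact permutation p = 0.5).

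The third comparison set shARID1B+4OHT against vector-4OHT cells and shares arrays with both others. Of the 9 genes, 5 were called higher (SPRY2, SPRY4, SPRED2, ETV1 and ETV4) and 1 lower (SPRY1), where 31.5% of all genes were called, 15.6% (2867) higher and 15.9% (2933) lower. The groups did not overlap for 7 of the 9, 6 higher (20.8% of all genes) and 1 lower (25.1%), against 45.9% in either direction. At least 2-fold higher and called were 4 of the 9, against 1.58% of all genes. With array medians subtracted the split of called genes was 3452 higher and 2087 lower, and SPRED1 was then called too. SPRY4 stood 1.97 above vector-4OHT cells (adjusted p = 7e-09, limma), SPRY2 1.81 (adjusted p = 5.44e-10), ETV1 1.36 (adjusted p = 3.26e-08), ETV4 1.15 (adjusted p = 6.32e-06) and SPRED2 0.44 (adjusted p = 0.00169). For ETV1 this is 2.56-fold. SPRY1 stood at -0.36 (adjusted p = 0.00082). SPRED1 missed the call at 0.15 (0.015 to 0.28, adjusted p = 0.0882), and without vector-4OHT replicate 2 or vector+4OHT replicate 1 it was called (adjusted p = 0.0466 and 0.0449). SPRED3 at 0.11 (adjusted p = 0.31) and ETV5 at -0.060 (adjusted p = 0.588) were not called.

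By level, the order of the groups was shARID1B+4OHT, vector+4OHT, vector-4OHT for both SPRY2 and ETV1, with each neighboring pair called. For SPRY4 and ETV4 the order was the same, but the shARID1B+4OHT and vector+4OHT groups did not differ beyond their spread. For SPRED2 the order was vector+4OHT, shARID1B+4OHT, vector-4OHT, with each pair called as far as the limit on SPRED2 above allows. SPRY1 was highest in vector-4OHT cells, and its other groups did not differ beyond their spread.

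Genes with the most similar pattern were sought for the 5 of the 9 genes whose group means spanned at least 0.5, as the smallest root mean square difference over the 9 arrays after each gene's own mean was subtracted. For SPRY2 they were VEGFA at 0.053, LIF at 0.080 and SMOX at 0.083, where the median over all genes was 0.813. For ETV1 they were AGPAT5 at 0.038, BAALC at 0.055 and EYA4 at 0.075 (median 0.584). SPRED2 was nearest to ABTB2 at 0.030, PODXL at 0.049 and C2CD2L at 0.055 (median 0.347). SPRY4 was nearest to PLEK2 at 0.080, NETO1 at 0.107 and ACP3 at 0.109 (median 0.924), and ETV4 to FJX1, TRNP1 and MAP4K4 at 0.106, 0.108 and 0.108 (median 0.556). Between genes of the 9 with such a span, SPRY2 and SPRY4 were nearest to each other, at 0.163. The measure describes likeness over 9 arrays that share 3 conditions.

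Other genes of the pathway were read from lists chosen with earlier results of these data known. Their counts are read against the shares of all genes called, 32.6% with RAS (14.9% higher and 17.6% lower) and 15.7% with the hairpin (9.63% higher and 6.09% lower). Of 12 ERK target genes, 10 were higher in vector+4OHT than in vector-4OHT cells and 0 lower (median 0.62, against -0.012 over all genes). DUSP6, a phosphatase of ERK, averaged 11.90 ± 0.014 in vector+4OHT cells and 10.04 ± 0.058 in vector-4OHT cells (SD, n = 3 each), a log2 change of 1.87 (adjusted p = 4.46e-10, limma). IER3 rose by 1.67, DUSP4 by 1.16 and EGR1 by 0.98. With the hairpin, 1 of the 12 was higher and 4 lower (median -0.13, against -0.017 over all genes). DUSP4, a nuclear ERK phosphatase, averaged 7.37 ± 0.045 in shARID1B+4OHT cells and 7.97 ± 0.034 in vector+4OHT cells (SD, n = 3 each), a change of -0.60 (adjusted p = 0.000291, limma). EPHA4 changed by -0.59, MYC by -0.23 and DUSP6 by -0.17 (adjusted p = 0.0344), and FOS by 0.33. Without vector+4OHT replicate 2 or shARID1B+4OHT replicate 3, 3 of the 12 were called in place of 5.

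**Figure D3:**
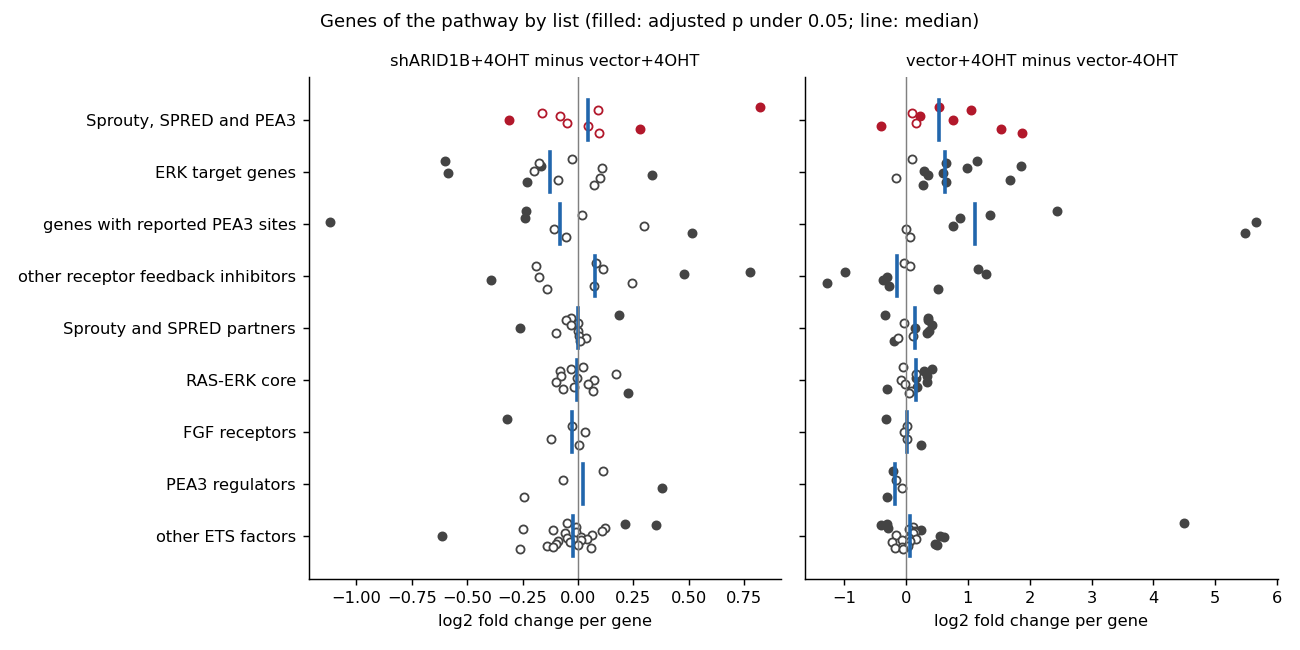
Log2 fold change of each gene in 9 lists, for shARID1B+4OHT minus vector+4OHT (left) and vector+4OHT minus vector-4OHT (right, on its own scale), 1 point per gene, filled where the adjusted p was under 0.05, with a bar at the list's median. The 12 ERK target genes have a median of -0.13 on the left and 0.62 on the right.

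Of 11 binding partners of Sprouty and SPRED proteins, 6 were higher and 2 lower with RAS (32.6% of all genes called), and 1 was higher and 1 lower with the hairpin, near the 15.7% of all genes. Of these last 2, 1 was called without vector+4OHT replicate 1 or any 1 of the shARID1B+4OHT arrays. The adaptor GRB2 rose by 0.42 with RAS (adjusted p = 9.79e-05) and the ubiquitin ligase CBL by 0.35 (adjusted p = 0.000296). CAV1, the caveolar coat protein, changed by -0.34 with RAS and by 0.18 with the hairpin (adjusted p = 0.000201 and 0.0238). MKNK1 was the partner called lower with the hairpin, at -0.26, and was 0.15 higher with RAS (adjusted p = 0.00462 and 0.0396, limma). NF1, which SPRED proteins recruit, was 0.34 higher with RAS (adjusted p = 0.0049) and not called with the hairpin (-0.098, adjusted p = 0.435). Of 13 RAS-ERK core genes, 6 were higher and 1 lower with RAS, where 14.9% of all genes were higher and 17.6% lower. MAP2K1, which encodes MEK1, rose by 0.34, and SHOC2, a scaffold that helps activate RAF, was the lower one at -0.31 (adjusted p = 0.000444). HRAS was 0.28 higher, and whether its probes read the transgene was not tested. With the hairpin SOS2 alone was called, at an adjusted p of 0.0471, and 14 of 19 alternative settings called none of the 13. Of 5 FGF receptor genes, FGFRL1 rose by 0.24 and FGFR1 fell by 0.32 with RAS, and FGFR1 changed by -0.32 with the hairpin as well (adjusted p = 0.00457). With RAS, 1 of the 5 was called without vector-4OHT replicate 1 or vector+4OHT replicate 2.

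Of 10 other genes linked to feedback on receptors, 3 were higher and 5 lower with RAS, where 32.6% of all genes were called. With the hairpin 2 were higher and 1 lower, where 15.7% of all genes were called. The list held inhibitors, but also FLRT3, a membrane protein that binds FGF receptors, and its relative FLRT2. Its counts are therefore not counts of inhibitors alone. FLRT3 rose by 1.30 with RAS and by 0.48 with the hairpin, and FLRT2 changed by -0.99 and 0.78. FLRT3 and FLRT2 were the 2 genes called higher with the hairpin. ERRFI1, an inhibitor of the EGF receptor, rose by 1.17 with RAS. LRIG3 changed by -1.28 with RAS, and LRIG1, which promotes breakdown of EGF receptors, by -0.40 with the hairpin.

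Of 4 regulators of PEA3 factors, 2 were lower with RAS, where 17.6% of all genes were. They were DET1 at -0.31 and ATXN1 at -0.21 (adjusted p = 0.0116 and 0.0232, limma). Without vector-4OHT replicate 2 or 3 or vector+4OHT replicate 1, 1 of the 4 was called. The repressor CIC was not called with RAS (-0.16, adjusted p = 0.105) or with the hairpin (-0.070, adjusted p = 0.549), and was called lower in shARID1B+4OHT than in vector-4OHT cells (-0.23, adjusted p = 0.0256). The ubiquitin ligase COP1 averaged 8.98 ± 0.086 in shARID1B+4OHT cells and 8.60 ± 0.15 in vector+4OHT cells (SD, n = 3 each), a change of 0.38 (adjusted p = 0.00754, limma). Of 8 genes with PEA3 sites reported elsewhere, 6 were higher with RAS and 0 lower, where 14.9% of all genes were higher and 17.6% lower. Their median was 1.12, against -0.012 over all genes. Among the 6 were the matrix-degrading enzyme MMP3 at 5.66, the prostaglandin synthase PTGS2 at 5.49 and the adhesion molecule ICAM1 at 2.44. With the hairpin MMP3 changed by -1.12, MMP14 by -0.24, ICAM1 by -0.24 and PTGS2 by 0.51. The other 4 of the 8 were not called with the hairpin, where 15.7% of all genes were called. Whether PEA3 factors act on any of the 8 in these cells was not tested.

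Among 24 other ETS genes, 6 were higher and 3 lower with RAS, a share near the 32.6% of all genes called. EHF, an ETS factor of epithelial cells, rose by 4.49, ETS2 by 0.62, ETS1 by 0.54 and FLI1 by 0.47. With the hairpin 2 of the 24 were higher and 1 lower, not above the 15.7% of all genes. ETS1 averaged 9.41 ± 0.022 in shARID1B+4OHT cells and 10.02 ± 0.079 in vector+4OHT cells (SD, n = 3 each), a change of -0.61 (adjusted p = 9.96e-05, limma), and ELF2 changed by 0.35. Without vector+4OHT replicate 2 or shARID1B+4OHT replicate 2 or 3, 1 of the 24 was called.

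The labelled cell type was read from markers. All 10 fibroblast markers were above the median of all probe set values in every group. Their summed linear level was 29855 to 30764 in shARID1B+4OHT cells, 29328 to 30633 in vector+4OHT cells and 35722 to 39250 in vector-4OHT cells. Of the 10, 8 were lower with RAS, where 17.6% of all genes were. With the hairpin 2 were higher and 2 lower, where 9.63% of all genes were higher and 6.09% lower. Of 8 leukocyte markers 2 were above the median in each group, CD68, which fibroblasts also express, and NKG7, while PTPRC and CD3E stayed below it. The sum over leukocyte markers was 3143 to 3543 in shARID1B+4OHT cells, 2602 to 2771 in vector+4OHT cells and 2221 to 2430 in vector-4OHT cells, and CD68 was the marker called in each comparison. Of 8 epithelial markers 3 or 4 were above the median, with sums of 1520 to 1610, 1435 to 1639 and 1663 to 1770 in the same order of groups. KRT18, KRT19 and KRT8 were above it in every group, CLDN4 only in shARID1B+4OHT cells, and EPCAM and CDH1 in none. KRT19 changed by -1.10 with RAS (adjusted p = 1.22e-05) and by 0.86 with the hairpin (adjusted p = 0.000321), KRT8 by -0.25 with RAS (adjusted p = 0.048) and CLDN4 by 0.38 with the hairpin (adjusted p = 0.00128). Of 9 endothelial markers 3 were above the median in each group, ROBO4, TEK and CLDN5, while CDH5, VWF and PECAM1 were among those below it. The sums over the 9 were 867 to 898, 904 to 1018 and 815 to 849 in that order of groups. ROBO4 changed by 0.93 with RAS and -0.67 with the hairpin (adjusted p = 4.8e-06 and 0.000255), PECAM1 by 0.58 and -0.28 (adjusted p = 0.000254 and 0.0468), and TEK by -0.30 and 0.45 (adjusted p = 0.002 and 0.000526). The part of these shifts in the results above was not tested, and in bulk RNA fewer cells of a type and less RNA per cell cannot be told apart.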

How the data were processed

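RNA of 9 IMR90 ER:RAS samples (labels: IRM90) was measured on Affymetrix whole-transcript arrays, although the labels' extraction text names a kit for sequencing libraries. The deposited values are log2 expression per probe set, made by the authors with RMA (background correction, quantile normalization, probe summary), and the submitters' processing notes also name oligo and limma, with versions and genome build not given in the sources used here. Of 33297 probe sets, 19460 carried exactly 1 symbol. For genes with several, the one with the highest mean was kept, which left 18417 genes. The remaining 1754 with several symbols and 12083 with none were left out of gene tests. No cutoff on dim genes was applied.

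All 9 arrays were fitted with limma 3.58.1 and its eBayes step under R 4.3.3, by group alone. Each 2-sided p was adjusted by Benjamini-Hochberg across the 18417 genes of a comparison. Array number limits the precision: the residual degrees of freedom were 6 (10.45 including the prior) and the median residual SD 0.0843. Exact permutation tests compared differences between genes within arrays, for pairs of genes that were not among the planned tests. Promoter sequences are from RefSeq (GRCh38.p14), and other coordinates are not printed.

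Members and lists were chosen with earlier results of these data known. Named were the 9 members, ARID1B, and from each list up to 4 genes with the smallest p for RAS and for the hairpin, and 3 genes with the nearest pattern per member. CIC, NF1, DUSP6 with the hairpin, KRT18 and the below-median markers lie outside that rule and were picked with their values in view. Alternatives were a replicate block, a fit on the 6 arrays of a comparison, a filter on dim genes, adjustment over all probe sets, averaged probe sets per gene, array medians subtracted, a trended robust prior, the methods' t-test, a raised standard error (added after seeing the data) and leaving out each array.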

Additional observations from a re-analysis of the deposited data

How the results depend on the processing

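SPRY1, SPRY2, SPRY4, SPRED2, ETV1 and ETV4 kept their calls with RAS, and ETV1 and SPRY2 theirs with the hairpin, in all 18 alternatives with adjusted p-values. SPRED1 kept its call with RAS in 17 of 18, and lost it with the methods' t-test after Benjamini-Hochberg (adjusted p = 0.0999). SPRED2 with the hairpin kept its call in 12 of 18. Besides the single arrays already named, it lost the call with all probe sets (adjusted p = 0.0664), with array medians subtracted (-0.29, adjusted p = 0.0524) and with the t-test (adjusted p = 0.156), and its adjusted p ran from 0.0111 to 0.156.

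The methods' t-test after Benjamini-Hochberg called 3737 genes with RAS and 1446 with the hairpin, against 5996 and 2895 with limma, and at an unadjusted p under 0.05 it called 5998 and 4342. Leaving out 1 array gave 1801 to 2817 called genes with the hairpin, the fewest without shARID1B+4OHT replicate 2. The uncalled SPRY1 change with the hairpin was -0.0020 without shARID1B+4OHT replicate 1 and ran to 0.090 without shARID1B+4OHT replicate 3, and the uncalled ETV5 difference between shARID1B+4OHT and vector-4OHT cells was 0.00020 with array medians subtracted. SOS2 was the lone RAS-ERK core gene called with the hairpin, and 14 of 19 settings called none of the core genes.

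Deviations of same-numbered arrays from their group means correlated at -0.19 to 0.23 over 9 pairs, against -0.22 to 0.23 for the other pairs. Between vector+4OHT and shARID1B+4OHT the same-numbered pairs were all positive, at 0.227, 0.047 and 0.085. Differently numbered pairs of these groups ran from -0.20 to 0.12. The labels name no pairing, and the replicate number was not taken as a pairing. With it as a replicate block, 5658 genes were called with RAS, 2498 with the hairpin and 5437 between shARID1B+4OHT and vector-4OHT cells, and of the 9 members 7, 3 and 6, as without it. The cause of these changes was not tested. The few arrays and their spread limit which small changes can be called, and RMA compresses low signals.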
